A study of Drosophila melanogaster with 4 samples.

Results

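The genes described here encode the proteins of the cytoplasmic ribosome in Drosophila melanogaster. They were chosen by symbol: every gene whose symbol starts with RpL (large subunit) or RpS (small subunit), leaving out the mitochondrial mRpL and mRpS genes. Of the 14885 genes in the deposited tables, 87 carried such a symbol, 51 for the large and 36 for the small subunit. A further 5 genes with symbols of this kind in the reference annotation (RpL19, RpL27A, RpL31, RpS10b and RpS12) had no matching identifier and were not analysed here. The rule used no measured value.

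RNA was sequenced from eye-antennal imaginal discs, the larval epithelia that form the adult eye, antenna and much of the head capsule, dissected from wandering larvae of the third instar. The mutant sample carried gl[60j], a mutant allele of glass, whose zinc-finger transcription factor is required for photoreceptor differentiation. It was sequenced as 2 libraries that the labels call technical replicates, so they count as 1 sample. Wild type is represented by 2 strains, Canton S and RAL-208. A single library was made from each, and the labels do not say that the mutant shares either background. Genotype, strain background and dissection therefore cannot be told apart, and p-values measure only the spread between these few libraries. In the main test, which sums the mutant libraries, p-values and standard errors rest on the spread between the strains alone. The difference between the mutant libraries does not enter them.

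Cytoplasmic ribosomes translate nuclear messenger RNAs, and each subunit is built from ribosomal RNA and a set of small, mostly basic proteins needed in nearly equal amounts. Ribosomal protein mRNAs are among the most abundant in growing larval tissues. In flies, losing a single functional copy of many of these genes gives the Minute phenotype of slow development and thin bristles. Several of them exist in flies as paralog pairs with a widely used main copy and a minor copy, some of which are known mainly from the germline.

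Reads assigned to genes numbered 11292175 and 27044633 in the mutant libraries, 12118170 in Canton S and 11805345 in RAL-208. A count of 3 reads, the limit below which a gene was treated as not measured, is worth between 0.111 and 0.266 CPM (counts of a gene scaled to the gene reads of its library). The mutated gene, gl, stood at 105 and 108 CPM in the mutant libraries, against 299 CPM in Canton S and 235 CPM in RAL-208. All 11 eye-antennal disc markers matched were detected, at a summed 2843 and 2834 CPM in the mutant libraries, against 2546 and 2598 CPM in the wild-type strains. Each mutant library lay above each strain in 6 of these markers and below in 4, beside 26.2% and 41.0% of all genes tested. Summed markers of several other tissues differed in level. The 12 brain and nerve cord markers summed to 207 and 209 CPM in the mutant libraries, against 463 and 542 CPM in the strains. Each mutant library lay below each strain in 11 of the 12. Yet mira had 50.3 and 49.0 CPM, against 49.7 and 59.0 CPM, and dpn 37.6 and 36.5 CPM, against 38.5 and 40.1 CPM. The 6 muscle markers summed to 301 and 285 CPM, against 451 and 695 CPM (2 below). The 6 haemocyte markers summed to 365 and 336 CPM, against 379 and 785 CPM (5 below). The 7 fat body markers summed to 2987 and 2896 CPM in the mutant libraries, against 21119 CPM in Canton S and 12242 CPM in RAL-208. Fat body markers did not move together: for 4 of the 7 each mutant library lay under each strain, whereas Fbp1 had 1894 and 1839.8 CPM in the mutant libraries, against 7835 CPM in Canton S and 56.8 CPM in RAL-208. The 7 salivary gland markers summed to 104 and 107 CPM in the mutant libraries, between the 159.8 CPM of Canton S and the 52.9 CPM of RAL-208. The 5 glial markers summed to 753 and 731 CPM, against 662 and 578 CPM, but most of that sum was Gli. Each mutant library lay above each strain in 2 of the 5 glial markers and below in 3. The 5 markers of wing, leg and trunk discs summed to 6.55 and 6.17 CPM in the mutant libraries, against 43.2 and 81.2 CPM in the wild-type strains. The 8 photoreceptor markers, gl among them, summed to 529 and 524 CPM, against 1127 and 1059 CPM. In such bulk tissue, fewer cells of a type and less RNA per cell cannot be told apart, and the part of these tissue differences in the values below was not tested unless stated.

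Ribosomal protein genes took a larger share of the transcriptome in the glass mutant. They held 11.6% of gene reads in the first and 12.7% in the second mutant library, against 9.95% in Canton S and 9.86% in RAL-208. Counting error was small beside these differences: the exact (Clopper-Pearson) 95% intervals ran from 11.5% to 11.6% and from 12.66% to 12.69% in the mutant libraries, against 9.93% to 9.97% and 9.84% to 9.87% in the wild-type strains, and cover counting error only. The mutant mean was 12.1 ± 0.794% and the wild-type mean 9.90 ± 0.0652% (SD, n = 2 libraries each), a 1.22-fold ratio. The mutant libraries lay above both strains, but their distance from each other was far wider than the distance between the strains. No test was made of the share, since 1 mutant sample stands against 2. The ratio was 1.23 when the 100 most abundant other genes of the table were left out of the total, and 1.22 without the members of at most 400 bases.

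Both subunits contributed alike. Large-subunit genes held 7.28 ± 0.465% of gene reads in the mutant and 5.97 ± 0.0524% in wild type, and small-subunit genes 4.84 ± 0.329% and 3.93 ± 0.0128% (SD, n = 2 libraries each), ratios of 1.22 and 1.23. Reads of small-subunit genes per read of large-subunit genes came to 0.663 and 0.667 in the mutant libraries, against 0.656 in Canton S and 0.661 in RAL-208. Across the 4 libraries the balance between the subunits thus differed little. No member dominated the total: the 5 most abundant held 12.9% of the members' CPM.

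**Figure D1:**
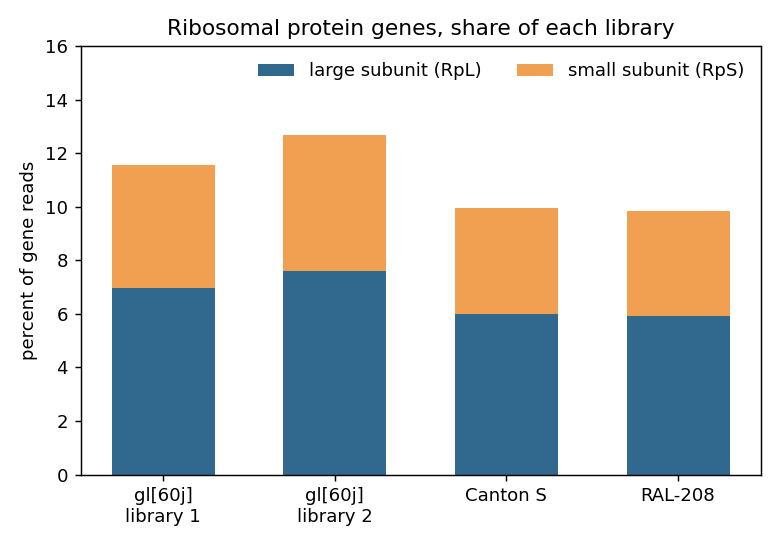
Percent of gene reads held by ribosomal protein genes in each library, as bars stacked from large-subunit and small-subunit genes. The bars reach 11.6% and 12.7% in the mutant libraries and 9.95% and 9.86% in the wild-type strains.

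Most of the individual genes followed the total. Both mutant libraries lay above both wild-type libraries in 69 of the 87 members, 41 of the large and 28 of the small subunit, and no member had both mutant libraries below both strains. Among all 9059 genes that passed the filter on low counts, 26.2% had both mutant libraries above and 41.0% had both below. Of the members, 81 passed that filter, and the other 18 of the 87 were split between 12 that passed it with overlapping libraries and 6 that did not pass. The fitted log2 fold change (mutant over wild type, scaled between libraries by edgeR's trimmed mean of M-values) had a median of 0.43 over the 81 members, with an interquartile range of 0.32 to 0.54, against 0.0014 over all genes tested. It was above 0 in 80 of the 81 (78 when scaled by library totals alone), beside 50.2% of all genes tested. The medians were 0.42 for the 48 large-subunit and 0.48 for the 33 small-subunit genes. Of these medians it may be said only that they describe these libraries, because no test was made over the list.

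No member passed the test. With the mutant libraries summed to 1 sample, edgeR's quasi-likelihood F test with Benjamini-Hochberg adjustment over all 9059 genes called 0 members and 0.0% of all genes, and the smallest adjusted p of a member was 0.209. At an unadjusted p under 0.05, 42 members were higher, beside 6.44% of all genes tested. DESeq2 on the same 3 columns called 31 members higher, beside 1.68% of all genes, and 0 lower, beside 4.28%. Treating the 4 libraries as separate samples, which makes p-values too small because the mutant libraries are technical replicates, gave 34 members higher, 20 of the large and 14 of the small subunit, beside 8.05% of all genes, and 0 members lower, beside 11.3%. That count was 71 without Canton S, beside 29.5% of all genes, and 61 without RAL-208, beside 23.3%. In those fits the spread comes from the technical replicates alone, and the lone strain is assumed to vary like them. Without either mutant library the spread comes from the strains alone, and the count was 0, beside 0.0% of all genes.

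**Figure D2:**
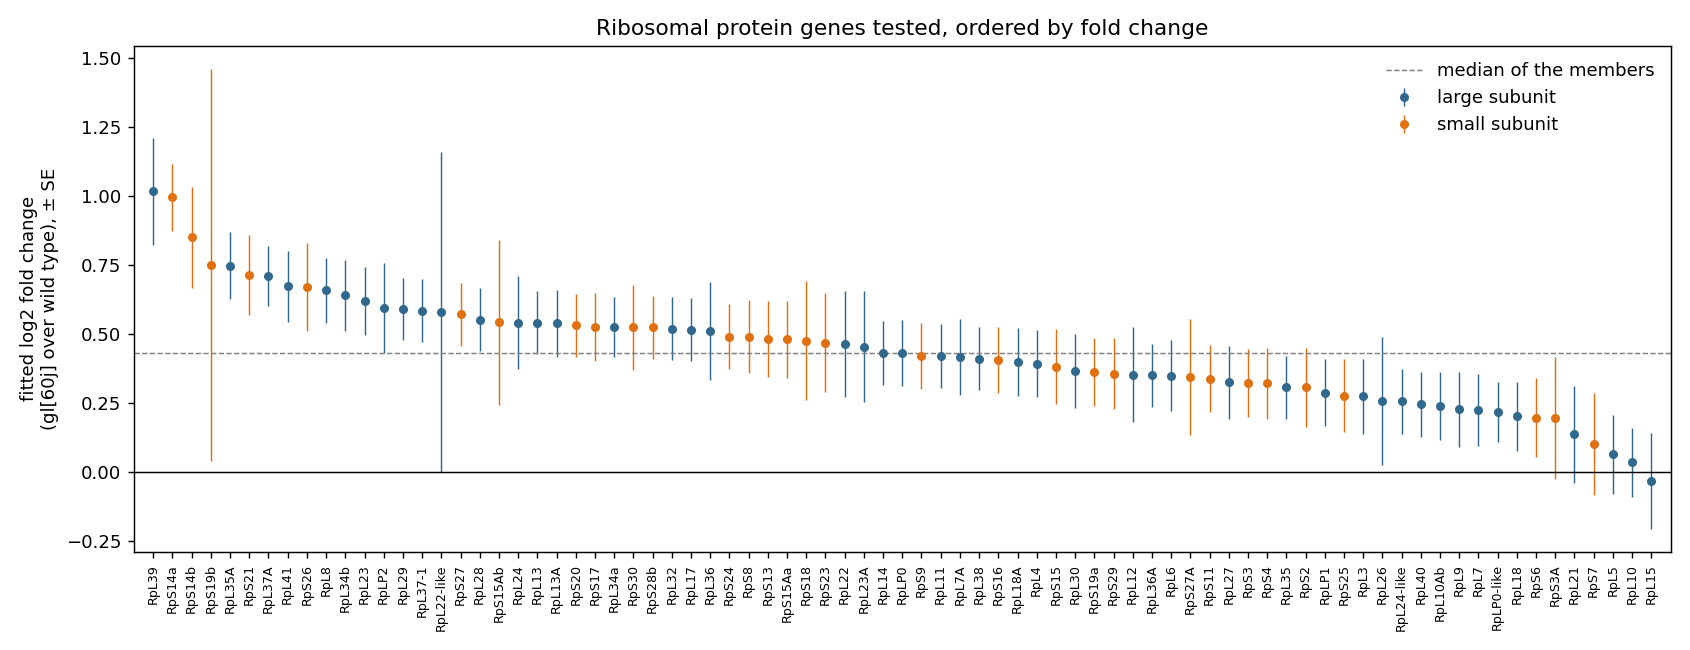
Fitted log2 fold change (mutant over wild type) of 79 ribosomal protein genes tested, ordered by value and coloured by subunit, with bars of ± SE and a dashed line at the median of 0.43 over all 81 members tested. Values run from 1.02 for RpL39 to -0.03 for RpL15, and large-subunit and small-subunit genes are mixed along the order.

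The highest values among abundant members belonged to a gene pair of the small subunit and to several short large-subunit proteins. RpS14a, a protein of the platform of the small subunit, had 721 and 884 CPM in the mutant libraries, against 461 CPM in Canton S and 421 CPM in RAL-208. Its log2 fold change was 0.997 ± 0.120 (SE, edgeR, adjusted p = 0.209). Its neighbour on chromosome X, RpS14b, which encodes the same protein, had 214 and 248 CPM in the mutant libraries, against 154 and 123 CPM in the wild-type strains, a log2 fold change of 0.85 ± 0.18 (SE, edgeR, adjusted p = 0.218). In neither copy did the genotypes overlap. Reads that match both copies may have been dropped or split in the authors' counting, so the level of each copy is uncertain.

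RpL39, a very short protein that lines the exit tunnel for the growing peptide, had 788 and 1326 CPM in the mutant libraries, against 679 CPM in Canton S and 533 CPM in RAL-208 (log2 fold change 1.02 ± 0.19, SE, edgeR, adjusted p = 0.213). The first mutant library stood much nearer to Canton S than to the second mutant library. Summing weighs the second mutant library more, since it holds more reads. The log2 fold change of RpL39 was 0.43 without that library and 1.21 without the first. RpL39 overlaps RpL12 on the opposite strand, and whether counting used strand is not given in the sources used here. RpL35A, another large-subunit protein, had 736 and 991 CPM in the mutant libraries, against 597 and 549 CPM in the wild-type strains (log2 fold change 0.75 ± 0.12, SE, edgeR, adjusted p = 0.209). Its log2 fold change was 0.41 without the second mutant library and 0.87 without the first. RpL37A, which carries a zinc-binding motif, had 975 and 1106 CPM in the mutant libraries, against 684 and 689 CPM in the strains (log2 fold change 0.71 ± 0.11, SE, edgeR, adjusted p = 0.209). For RpL37A the wild-type strains were nearly equal and both mutant libraries lay well above them.

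Other abundant members also had both mutant libraries above both strains. RpS28b, which sits near the exit of the mRNA channel, had 1276 and 1283 CPM in the mutant libraries, against 932 CPM in Canton S and 942 in RAL-208. RpL34b, a large-subunit protein, had 798 and 837 CPM in the mutant libraries, against 585 and 528 CPM in the strains. RpL8, which lies close to the peptidyl transferase centre, had 2189 and 2488 CPM in the mutant libraries, against 1582 and 1614 CPM in the strains. The mutant means were higher, by 1.37-fold for RpS28b, 1.47-fold for RpL34b and 1.46-fold for RpL8, with adjusted p = 0.218, 0.214 and 0.209 in edgeR's quasi-likelihood test.

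At the other end, a few abundant members did not separate the genotypes. RpL15, a core protein of the large subunit, had 2026 and 1964 CPM in the mutant libraries, against 1923 CPM in Canton S and 2340.2 CPM in RAL-208 (log2 fold change -0.03 ± 0.17, SE, edgeR, adjusted p = 0.954). RpL10, which joins the large subunit late in its assembly, had 2190.0 and 2456 CPM in the mutant libraries, against 2366 and 2513 CPM in the strains (log2 fold change 0.04 ± 0.13, SE, edgeR, adjusted p = 0.917). RpL5, which binds the 5S ribosomal RNA, had 2777 and 2997 CPM in the mutant libraries, against 2769 and 3128 CPM in the strains, a log2 fold change of 0.07 ± 0.14. In all 3 the libraries of the genotypes overlapped. RpS7 and RpL21 had log2 fold changes of 0.10 ± 0.18 and 0.14 ± 0.18 (SE), again with overlapping libraries. Other overlapping members, chosen for naming after their values were seen where the naming rule did not hold them, were RpS3A, RpL26, RpL18, RpS15, RpS18 and RpL22-like.

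In several of these the strains themselves differed. RpS3A, a small-subunit protein and the only member on chromosome 4, had 3277 and 3292 CPM in the mutant libraries, against 2587 CPM in Canton S and 3454 CPM in RAL-208. RpL26, a protein at the exit of the peptide tunnel, had 1415 and 1442 CPM in the mutant libraries, against 1447 CPM in Canton S and 1075 CPM in RAL-208. In RpS3A the mutant libraries lay near RAL-208, and in RpL26 near Canton S. Over the 77 members of at least 100 CPM in every library, the ratio of Canton S to RAL-208 ran from 0.644 to 1.35 with a median of 1.02.

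The stalk and the ubiquitin fusions lay on both sides of the median. RpLP0, the base of the lateral stalk that recruits translation factors, had 2225 and 2524 CPM in the mutant libraries, against 1875 and 1924 CPM in the strains, a log2 fold change of 0.43. Its acidic partners RpLP1 and RpLP2 had log2 fold changes of 0.29 and 0.60, with RpLP2 at 2130.4 and 2091 CPM in the mutant libraries, against 1583 CPM in Canton S and 1344 CPM in RAL-208. RpL40 and RpS27A, which are made as fusions to ubiquitin, had log2 fold changes of 0.25 and 0.35. RpS6, the S6 kinase substrate, had 2136 and 2083 CPM in the mutant libraries, against 2032 and 1815 CPM in the strains, a log2 fold change of 0.20. Of these 6 genes only RpLP2 lay clearly above the members' median of 0.43. The most abundant members stood on the lower side too: RpL4 and RpL3, which reach into the tunnel and the catalytic centre, had log2 fold changes of 0.39 and 0.28, and RpS2 had 0.31.

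The log2 fold change varied with level and length among the members. Over the 77 members of at least 100 CPM, Spearman's rho between log2 fold change and the wild-type CPM was -0.60, and that with the median transcript length was -0.36. These are descriptions across genes that share the same libraries, and the first uses the wild-type values on both sides. By length, the median log2 fold change was 0.67 for the 3 members of at most 400 bases, 0.53 for the 13 of up to 600 bases, 0.42 for the 36 of up to 800 bases, 0.37 for the 16 of up to 1000 bases and 0.42 for the 12 of up to 1500 bases. Other genes varied with length as well, at 0.10 for 85 genes, 0.23 for 254, 0.17 for 424, 0.13 for 520 and 0.07 for 1482 in the same classes. In each class the members' median lay above that of the other genes. Other genes of at least 500 CPM, a set not matched to the members in length, had a median of 0.08 over 264 genes. Features of position made smaller differences: the median was 0.48 for the 13 X-linked and 0.42 for the 68 autosomal members tested, and 0.40 for the 25 with a small nucleolar RNA gene in an intron against 0.49 for the 56 without.

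**Figure D3:**
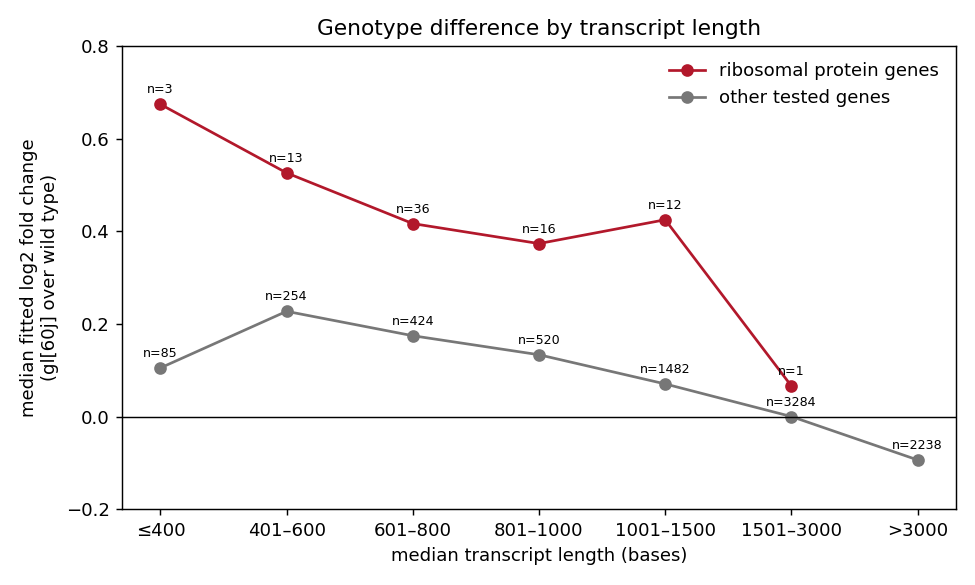
Median fitted log2 fold change (mutant over wild type) by class of median transcript length in bases, for ribosomal protein genes and for the other genes tested, with the number of genes beside each point. The members' median is 0.67 in the shortest class and lies above that of the other genes in every class that holds members.

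The mutant libraries, which were made from the same sample, differed from each other in many of these genes. Over the 2022 genes of at least 100 CPM in every library, the second mutant library over the first had a median ratio of 0.985, with an interquartile range of 0.965 to 1.01. Over the 77 members the median was 1.08, and 66 of them were above 1, beside 32.5% of the 2022 genes. A ratio above 1.25 was found in 9 members (11.7%), beside 0.544% of the 2022 genes, and these 9 made up 81.8% of the 11 genes past it. The members were RpL39 at 1.68, RpL29 at 1.54, RpL41 at 1.50, RpS18 at 1.42, RpS27 at 1.37, RpL35A at 1.35, RpS15 at 1.31, RpS16 at 1.27 and RpS30 at 1.25, several of them named after their values were seen. The other genes were Ubi-p63E, a polyubiquitin gene, at 1.45 and CG13551 at 1.26. In the other direction, 0 of the 2022 genes had the first library above the second by over 1.25-fold. RpL39, RpL29 and RpL41 also have the shortest transcripts of the 77 members, with medians of 288, 329 and 320 bases.

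For some members the first mutant library lay close to wild type. RpL29, a small protein of the large subunit, had 459 and 709 CPM in the mutant libraries, against 456 and 431 CPM in the strains. RpL41, a peptide of 25 residues and the shortest ribosomal protein, had 2270.2 and 3409.5 CPM in the mutant libraries, against 2099 and 1954 CPM in the strains. RpS18, a protein of the head of the small subunit, had 1441 and 2044 CPM in the mutant libraries, against 1597 and 1221 CPM in the strains. Most of the height of RpL29 and RpL41 over wild type came from the second mutant library, and in RpS18 the first lay between the strains. The median log2 fold change of all 81 members was 0.29 without the second mutant library and 0.49 without the first.

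**Figure D4:**
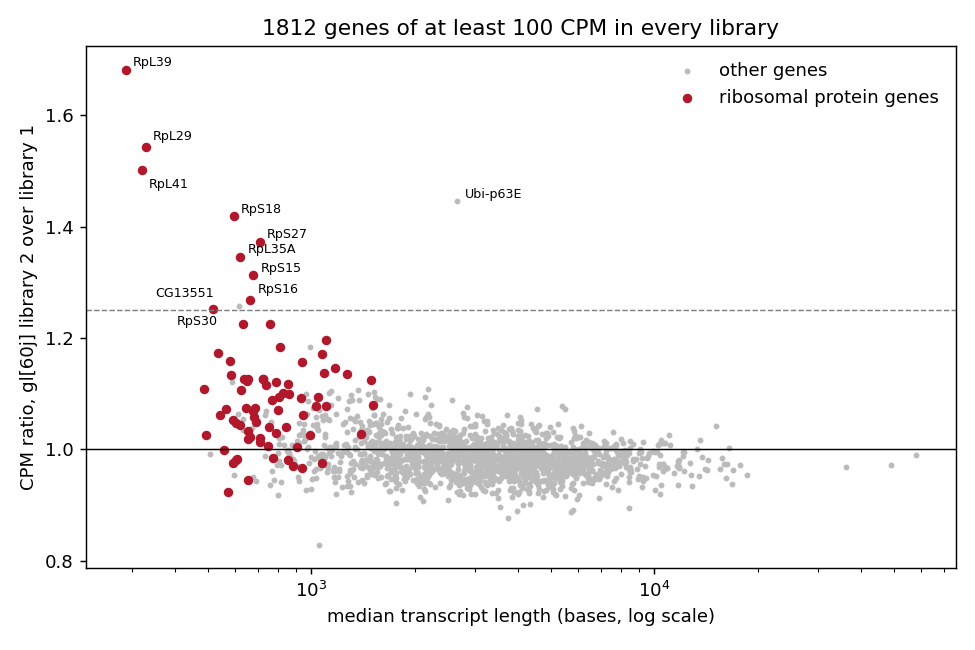
Ratio of the second to the first mutant library in CPM against median transcript length in bases, for the 1812 genes of at least 100 CPM in every library that have a length, with length on a log axis. Ribosomal protein genes make up most of the points above 1.25, led by RpL39, RpL29 and RpL41.

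Levels of the main copies were compared per length, as CPM per kilobase of median transcript. The 44 large-subunit main copies had a median of 2000.1 and 2156 in the mutant libraries, against 1767 in Canton S and 1654 in RAL-208, and the 29 small-subunit main copies 2094 and 2292, against 1801 and 1726. The large-subunit median was 0.955 and 0.940 of the small-subunit median in the mutant libraries, against 0.981 and 0.958 in the strains. In level per kilobase, 42 and 41 of the 44 large-subunit copies were within 2-fold of their median in the mutant libraries, against 41 and 41 in the strains, and 28 and 29 of the 29 small-subunit copies, against 28 and 27. The members of each subunit thus lay close together in every library. RpL41 was the highest at 7095 and 10655 CPM per kilobase in the mutant libraries, against 6560.1 and 6107 in the strains. The highest small-subunit main copy was RpS3A at 3601 and 3618, against 2842 and 3795. By genotype mean, the lowest main copy was RpL22, though in Canton S a small-subunit main copy lay lower, at 606 CPM per kilobase. RpL22 had 654 and 782 CPM per kilobase in the mutant libraries, against 633 and 499 in the strains. RpS14a, RpL34b and RpS15Aa came next, each the main copy of a pair in which the second copy holds at least 21.8% of the reads in every library.

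The paralog pairs were sorted into 3 kinds. The second was set apart by the known role of the minor copy, the others by its share of the pair's reads. In the first kind both copies were used. RpS15Ab held 28.2% and 28.3% of the pair with RpS15Aa in the mutant libraries, against 21.8% in Canton S and 32.9% in RAL-208. RpS14b held 22.9% and 21.9% of the RpS14 pair in the mutant libraries, against 25.1% and 22.7% in the strains. RpL34a held 23.0% and 21.9% of its pair with RpL34b, against 22.6% and 24.6%. The RpS15A share differed between the strains by more than between any mutant library and either strain, and the shares of RpS14b and RpL34a in the second mutant library lay below both strains, though nearer to the closer strain than the strains were to each other. The exact 95% intervals of RpS15Ab were 21.1% to 22.6% in Canton S and 32.1% to 33.8% in RAL-208, so the strains differ beyond counting error. The copies of RpS15A encode proteins of equal length and may share reads, which leaves their split uncertain.

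In the second kind the minor copy is a gene of another known role. RpL24-like, whose yeast counterpart is a ribosome assembly factor, held 13.5% and 12.3% of its pair in the mutant libraries, against 13.4% and 16.8% in the strains. RpLP0-like, likewise the counterpart of an assembly factor in yeast, held 2.77% and 2.46%, against 2.95% and 2.94%. In level, RpL24-like had 160 and 157 CPM in the mutant libraries, against 134 and 144 CPM in the strains, and RpLP0-like 63.5 and 63.8 CPM, against 57.0 and 58.2 CPM. Their log2 fold changes, 0.26 and 0.22, were below those of their main copies, 0.54 for RpL24 and 0.43 for RpLP0. The ratio of the second to the first mutant library was 0.984 for RpL24-like and 1.10 for RpL24.

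In the third kind the minor copy held a very small share of the pair or was not detected. RpS19b, known in flies from the germline, held 0.179% and 0.118% of its pair in the mutant libraries, against 0.138% and 0.0657% in the strains, and RpL22-like held 0.160% and 0.189%, against 0.177% and 0.154%. Both stayed under 2 CPM in every library.

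Of the 6 members that did not pass the filter on low counts, 4 had no read in any library: RpL7-like, RpL10Aa, RpL37-2 and RpS28-like. With no read, each could have stood at up to 0.111 CPM in the deepest library and 0.266 CPM in the shallowest. That limit holds only if reads of the gene could be counted. Reads lost to overlapping genes or to similar copies were not assessed. RpS28a had 0 and 2 reads in the mutant libraries, against 1 and 0 in the strains. RpS10a had 1 and 1 reads in the mutant libraries, against 2 in Canton S and 0 in RAL-208, and its share could not be given, since RpS10b was not matched. Where the minor copies were not detected, the main copies RpL7, RpL10Ab and RpL37-1 had log2 fold changes of 0.23, 0.24 and 0.59.

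**Figure D5:**
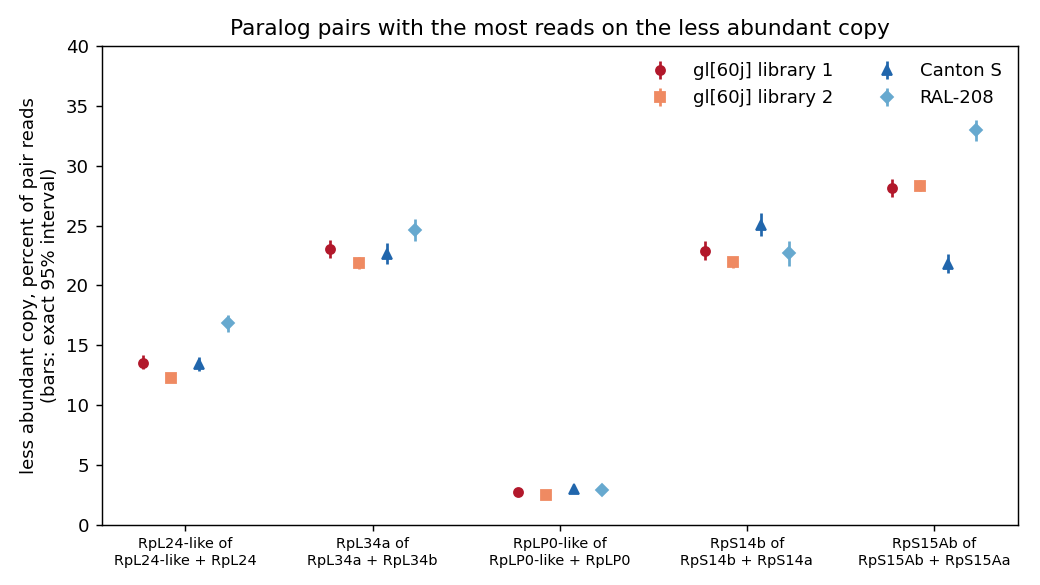
Percent of a pair's reads held by the less abundant copy in every library, for the 5 pairs with the most reads on that copy, with bars for exact 95% intervals that cover counting error only. RpS15Ab holds 21.8% in Canton S and 32.9% in RAL-208, with both mutant libraries between the strains.

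Lists of genes with related roles had lower medians than the ribosomal protein genes, and none of their genes was called by edgeR's test with the mutant libraries summed. The small-subunit proteins known under other symbols, sta and Rack1, were at 2715 and 2737 CPM and at 2267 and 2289 CPM in the mutant libraries, against 2404 and 2341 CPM and 2037 and 1938 CPM in the strains, with a median log2 fold change of 0.27. The 21 ribosome biogenesis genes tested had a median of 0.07, with both mutant libraries above both strains in 4 and below in 5, beside 26.2% and 41.0% of all genes tested. Among them Fib, the methyltransferase fibrillarin, had 184 and 200.3 CPM in the mutant libraries, against 153 and 134 CPM in the strains. The 23 translation initiation factors had a median of 0.11 (9 above, 2 below) and the 7 elongation and termination factors 0.10 (3 above, 1 below). The 16 growth regulators matched, of 22 listed, had a median of -0.03 (2 above, 8 below). Myc, mnt, Tor, S6k, InR and Maf1 were listed but not matched, so this median does not cover them. Of the 9 elongation and termination factors listed, eEF1alpha1 and eEF5 were not matched. The most abundant elongation factor matched, eEF2, had 6561 and 6507 CPM in the mutant libraries, against 6552 and 6535 CPM in the strains. It did not separate the genotypes. The matched elongation factor with both mutant libraries below both strains was eEF1alpha2, at 111 and 110.2 CPM in the mutant libraries, against 355 and 381 CPM in the strains (log2 fold change -1.67 ± 0.12, SE, edgeR, adjusted p = 0.182). Of the mitochondrial ribosomal proteins, 69 of 70 were tested, with a median of 0.20, and both mutant libraries lay above both strains in 35 and below in 4, beside the same 26.2% and 41.0% of all genes.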

How the data were processed

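The deposited tables hold whole-number read counts per gene, 1 table per library, made by the authors. CASAVA 1.8, TopHat2 2.0 and HTSeq and the dm3 build are named per the submitters' processing notes, and library preparation followed the Illumina TruSeq kit per the labels' protocols. No source used here gives the counting mode, strand setting or annotation. The 5 summary lines of each table entered neither library sizes nor tests. Genes held 74.4% to 76.7% of each table's reads. Symbols, transcript lengths and neighbours came from the Ensembl BDGP6 annotation, another build than dm3, so no coordinates are printed. Of the genes tested, 691 had no length.

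CPM (counts per 1000000 gene reads of the library) was computed from the deposited counts. The mutant libraries were summed (1 residual degree of freedom) and tested with edgeR 4.0.16 in R 4.3.3 (quasi-likelihood F test, TMM, filterByExpr over the 4 libraries with its default minimum of 10 reads, Benjamini-Hochberg at 0.05). SE is the log2 fold change over the square root of F. DESeq2 1.42.0 was an alternative, as were 4 separate libraries, other scalings, no filter and leaving out each library. The scripts were tested on simulated data. The floor is 3 reads and intervals are 95%. The unit CPM serves as a level between genes only per kilobase.

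Members, lists and tests were chosen with earlier results of these data known. Named genes are both genes of each pair, the 3 most abundant of each subunit, the 5 highest and 5 lowest log2 fold changes, the 3 smallest p, the 3 that differ most between strains and between mutant libraries, the stalk proteins and the ubiquitin fusions. Of the members, 1 gene pair enters the counts, shares and medians but is not reported here gene by gene.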

Additional observations from a re-analysis of the deposited data

Results flagged for a closer look

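Reads without a unique alignment, which the gene counts do not use, made up 18.9% of the first mutant library's table and 17.1% of the second's, against 15.9% in Canton S and 17.0% in RAL-208. Both mutant values were above both wild-type values, by a small margin for the second mutant library. How many of these reads come from ribosomal protein genes or their near-identical copies was not tested.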

How the results depend on the processing

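With the mutant libraries summed, 0 members were called, against 34 with 4 separate libraries and 31 by DESeq2. Leaving out each library moved the count of the 4-library fit between 0 and 71, and the fold of the share of gene reads between 1.17 and 1.28. The median log2 fold change of the members, 0.43, was 0.39 with 4 libraries, 0.36 with library totals and 0.48 with no filter on low counts, and ran from 0.29 to 0.49 with each library left out. Library totals put the median of all genes at -0.07. The large-subunit median, 0.42, was 0.34 with library totals and 0.29 to 0.47 with each library left out. The small-subunit median, 0.48, was 0.42 with 4 libraries, 0.40 with totals and 0.52 with no filter, and 0.28 to 0.52 with each library left out. The mutant share of RpLP0-like minus its wild-type share, -0.324 percentage points, was -0.396 per kilobase of coding length and -0.479 to -0.169 with each library left out. The wild-type level of large over small subunit, 0.952, was 0.897 by exon union length, 0.930 by coding length and 0.958 to 0.981 with a strain left out. Some log2 fold changes changed sign. RpL10, main value 0.04, was -0.0037 with 4 libraries, -0.038 with totals and -0.11 to 0.093 with each library left out. RpL15, -0.03, was 0.024 with no filter and -0.16 to 0.11 with each left out. RpL5, 0.07, was -0.0090 with totals and -0.036 to 0.15 with each left out. With each library left out, RpS7 ran from -0.046 to 0.26. The causes were not tested. With the mutant libraries summed, fits without a wild-type strain have no residual degrees of freedom and give values with no test. Leaving out libraries in the 4-library fit, and the other length measures for levels, were chosen after seeing the data. No paired analysis was possible because the wild-type libraries are different strains and the mutant libraries are technical replicates of the same sample. The gene reads set the floor of 3 reads, so differences among the minor copies with 0 to 2 reads were not detectable at this depth.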
